A study of Mus musculus with 18 samples.

Results

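The sclerotome transcription factors described here were 8 genes, Pax1, Pax9, Nkx3-2, Sox9, Sox5, Sox6, Twist1 and Scx. They were chosen by name, as known regulators of the sclerotome and of the cartilage and tendon lineages it gives rise to. All 8 were found by their Ensembl identifiers among the 53465 gene identifiers of the deposited table. All 8 also passed the filter on low counts in every comparison, so none was left out of a test.

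RNA was sequenced from 9 mouse embryos at embryonic day 9, each dissected into an anterior and a posterior piece, which gave 18 libraries. The posterior piece held the axial bud and the youngest somites. The anterior piece held the older somites and the axis around them, without the most anterior part, which bears none. The study looked for targets of Meis1 and Meis2, transcription factors that partner Hox proteins, in the patterning of the skeleton along the body axis.

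Control embryos numbered 5, with 23, 20, 24, 21 and 23 somites for controls 1 to 5 in that order, and their labels give no alleles beyond the word control. Double knockout (DKO) embryos numbered 4, with 22, 24, 20 and 23 somites for DKO 1 to 4. In these, both Meis1 and Meis2 were conditionally deleted with Delta1Cre, a Cre recombinase named for Delta1 (Dll1), a Notch ligand gene of the presomitic mesoderm. Cells of the pieces in which that Cre was never active keep both genes, and the pieces were sequenced whole. Each library therefore mixes sclerotome with neural tube, neural crest, gut, blood and vessels, and in such bulk samples fewer cells of a type and less RNA per cell cannot be told apart.

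The sclerotome is the ventral part of the somite. Hedgehog signals from the notochord and floor plate, with antagonists of bone morphogenetic proteins, induce Pax1 and Pax9 there, and these in turn act upstream of Nkx3-2, a repressor needed for vertebral cartilage. Sox9 then starts the cartilage programme with Sox5 and Sox6 as its cofactors, Scx marks the tendon progenitors at the sclerotome's edge, and Twist1 is a basic helix-loop-helix factor of mesenchyme. Several of these genes are also used elsewhere in the embryo: Sox9 and Twist1 in neural crest, Sox9, Sox5 and Sox6 in the neural tube, and Pax1 and Pax9 in the pharyngeal pouches.

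Libraries held from about 12651000 to 38180300 counts. The check of the targeted genes was weak: the deleted part of each gene is not given in the sources used here, so counts over the whole gene need not show the deletion. Meis2 stood at 190 ± 10.0 CPM (SD, n = 5) in anterior control and 143 ± 11.3 CPM (SD, n = 4) in anterior DKO libraries, a log2 fold change of -0.41 (SE 0.0608), and Meis1 at -0.30 (SE 0.0692) on the same scale. In the posterior piece the log2 fold changes were -0.52 for Meis2 and -0.55 for Meis1. None of these passed the threshold (edgeR's quasi-likelihood test, Benjamini-Hochberg adjusted p = 0.0522 to 0.336). Both libraries of control embryo 1, labelled female, held at most 0.340 CPM of Xist and 151 to 162 CPM over Y-linked genes, like the libraries labelled male.

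Promoters of 6 members were found in RefSeq (build GRCm38.p6), 11 in all because Sox6 has several. Those of 4 members are shown because the deleted genes encode proteins that bind a short DNA core, TGACAG. Each runs for 250 bases up to the annotated start, 5′ to 3′ on the gene's strand. Capitals mark the Meis core or a Sox core (AACAAT), read on either strand. Pax1 (chr2:147364744-147364993, plus strand) and Pax9 (chr12:56695221-56695470, plus strand) are the paired-box genes at the head of the list, Nkx3-2 (chr5:41764221-41764470, minus strand) is the one with the largest difference along the axis, and Twist1 (chr12:33957421-33957670, plus strand) is the most abundant.
Pax1: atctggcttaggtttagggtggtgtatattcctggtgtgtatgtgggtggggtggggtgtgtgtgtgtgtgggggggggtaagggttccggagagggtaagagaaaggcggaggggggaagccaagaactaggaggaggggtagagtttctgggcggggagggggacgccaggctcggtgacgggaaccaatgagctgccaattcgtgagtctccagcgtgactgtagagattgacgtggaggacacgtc
Pax9: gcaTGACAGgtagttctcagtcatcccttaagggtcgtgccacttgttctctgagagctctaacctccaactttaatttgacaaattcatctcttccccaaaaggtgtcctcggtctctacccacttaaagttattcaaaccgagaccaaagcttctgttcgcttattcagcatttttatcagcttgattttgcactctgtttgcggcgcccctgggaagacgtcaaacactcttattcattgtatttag
Nkx3-2: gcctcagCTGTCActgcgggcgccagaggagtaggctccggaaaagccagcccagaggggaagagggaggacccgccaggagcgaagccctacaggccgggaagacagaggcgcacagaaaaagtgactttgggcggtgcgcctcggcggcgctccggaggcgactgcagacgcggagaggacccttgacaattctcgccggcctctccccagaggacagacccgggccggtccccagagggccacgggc
Twist1: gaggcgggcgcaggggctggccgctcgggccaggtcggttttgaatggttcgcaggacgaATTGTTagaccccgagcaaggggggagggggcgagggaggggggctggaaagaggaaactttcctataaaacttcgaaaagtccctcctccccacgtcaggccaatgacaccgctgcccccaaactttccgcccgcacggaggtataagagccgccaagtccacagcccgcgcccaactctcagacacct

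The Meis core was found in the Pax9 promoter, 247 to 242 bases before the start, and on the reverse strand of the Nkx3-2 promoter, 243 to 238 bases before it. It was also found in 2 of the 6 Sox6 promoters. Over all 32851 RefSeq promoters of this length, 15.9% held it on either strand. No Meis core was found in the windows of Pax1, Twist1 or Sox5. The starts used for Pax1 (147364994) and Pax9 (56695471) lie inside the genes, which begin at 147361925 and 56691767 in GENCODE M21. That of Sox5 (143947106) lies far inside, since the gene begins at 144781977 on the minus strand. Other starts of these 3 genes were not searched. The Sox core, present in 9.42% of all promoters, was found on the reverse strand of the Twist1 promoter 190 to 185 bases before the start, and at 2 positions in 1 of the Sox6 promoters. E-boxes (CANNTG), the class of site that Twist1 binds, were in 66.2% of all promoters and were found in those of Pax9, Nkx3-2, where the E-box shares 3 bases with the Meis core, and Sox6, in 6 of 6. In 1 of the Sox6 promoters an E-box shares 2 bases with the Meis core. A Pbx-Hox core (TGATNNAT, in 7.68% of promoters) and a Gli core (GACCACCCA, in 0.225%) were found in none of the members' windows. Such matches describe letters and are not evidence of binding.

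Levels are given as CPM, counts scaled to library size by TMM over all 18 libraries, or, between genes, in CPM per kilobase of exon. In anterior controls Twist1 was the most abundant member per kilobase, at 69.4 ± 7.54 CPM per kb (SD, n = 5). Pax1 at 12.1 ± 1.29 and Sox9 at 11.4 ± 1.34 CPM per kb followed, and their ranges overlapped. Pax9 (1.56 ± 0.383), Nkx3-2 (1.41 ± 0.228) and Sox6 (1.01 ± 0.128 CPM per kb) came next, each overlapping its neighbour in the order. Sox5 (0.645 ± 0.0520) and Scx (0.386 ± 0.101 CPM per kb) were lowest, with ranges apart from each other. Scx rested on 8 to 29 counts per library over all groups and Nkx3-2 on 4 to 75, against at least 188 for Pax1, so these 2 rest on the fewest counts.

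The order was not the same in the other groups. In anterior DKO libraries Sox9 at 11.02 ± 0.637 CPM per kb (SD, n = 4) stood above Pax1 at 6.31 ± 2.30, with no overlap between their ranges. In the posterior piece Pax9 and Sox6 stood above Nkx3-2 in both genotypes, and the ranges of Nkx3-2 and Scx overlapped.

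**Figure D1:**
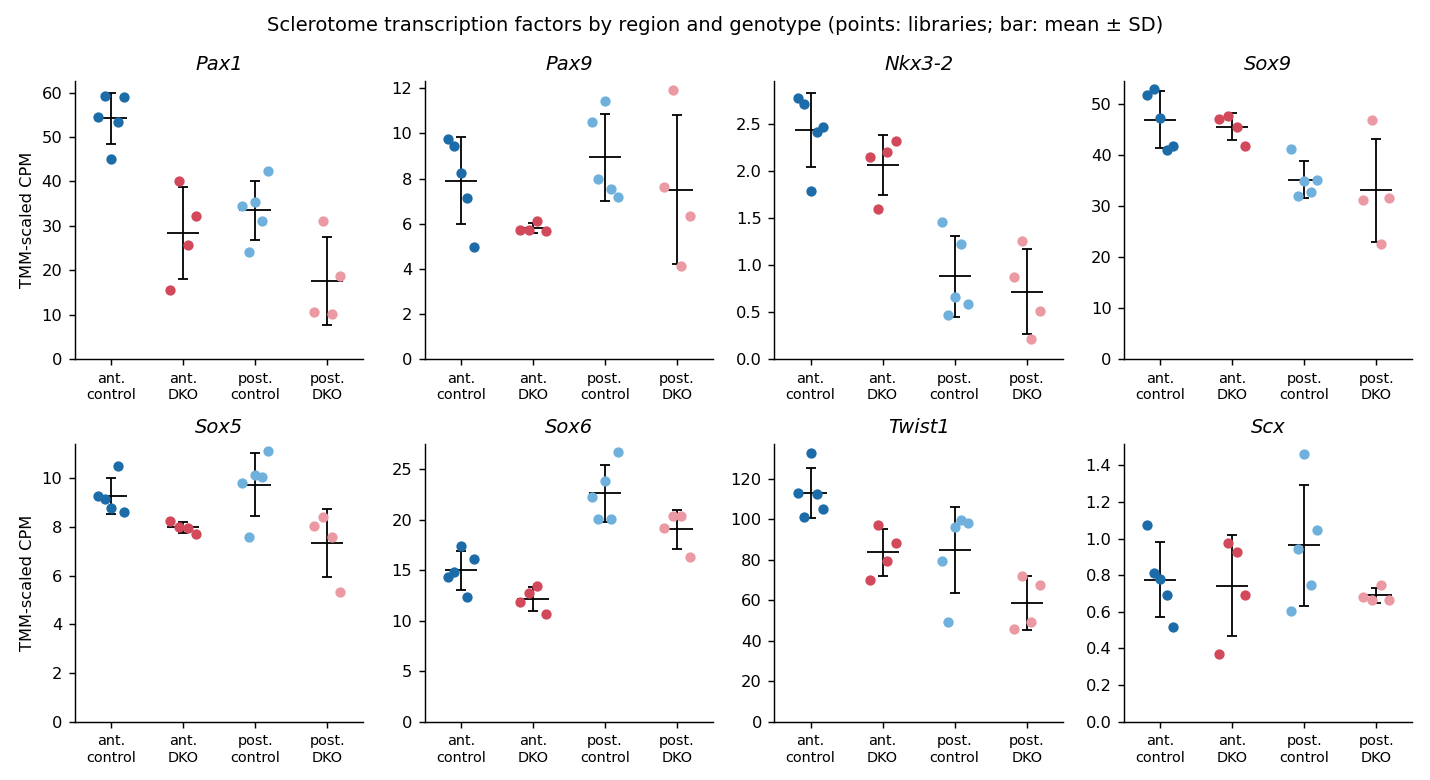
TMM-scaled CPM of each member (vertical axis, linear from 0) in the 4 groups (horizontal axis), with 1 point per library and a bar for the mean ± SD, n = 5 control and n = 4 DKO libraries per piece. The Pax1, Sox5 and Twist1 points of anterior DKO libraries all lie below those of anterior controls, and the Nkx3-2 points of posterior libraries all lie below the anterior ones.

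The first comparison set the posterior against the anterior piece within each genotype, which asks where along the axis, and at which somite age, these genes are used. In controls Pax1, Nkx3-2 and Sox9 were lower in the posterior piece, Nkx3-2 by the most, and Sox6 was higher. In DKO embryos Nkx3-2 and Twist1 were lower and Sox6 was again higher. With the embryo as a block, since both pieces come from the same embryos, Twist1 also passed in controls and Pax1 and Sox9 in DKO embryos, which made 5 members in each genotype, where 33.6% and 19% of all genes passed. Without the block, 1 of the 8 members rose and 3 fell in controls, where 25.4% of the 15294 genes tested passed (12.1% higher and 13.3% lower). In DKO embryos 1 rose and 2 fell, where 18.5% of 15777 genes passed (8.76% higher and 9.7% lower). The pieces thus differed at many genes, and the members' counts are to be read against these shares.

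Pax1, the paired-box factor that marks ventral sclerotome, stood at 54.5, 59.2, 45.0, 53.3 and 59.1 CPM in the anterior pieces of controls 1 to 5. Their posterior pieces held 34.4, 24.1, 35.4, 31.2 and 42.4 CPM. Every posterior value lay below every anterior one, and the widest gap within an embryo was that of control 2, with 20 somites. The log2 fold change was -0.70 (SE 0.125, edgeR's quasi-likelihood test, adjusted p = 0.00116), that is 1.62-fold lower.

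In DKO embryos 1 to 4 Pax1 held 15.6, 40.0, 25.6 and 32.1 CPM in the anterior and 10.6, 31.1, 10.0 and 18.6 CPM in the posterior piece. The 2 sets overlapped because embryos differed, yet the posterior library was the lower one in 4 of 4 embryos, as in 5 of 5 controls. Without a term for the embryo the DKO difference was -0.68 on the log2 scale (SE 0.378) and did not pass (adjusted p = 0.281). With the embryo as a block it was -0.74 (SE 0.148) and passed (adjusted p = 0.00809), in a fit where 19% of all genes passed.

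Pax9, the close paralog of Pax1, did not pass in either genotype. Its anterior control values were 9.74, 9.45, 8.24, 7.13 and 4.99 CPM and its posterior ones 10.5, 7.99, 11.5, 7.52 and 7.20 CPM. The ranges overlapped, and the posterior library was the higher one in 4 of 5 controls and 3 of 4 DKO embryos. The exceptions were control 2 and DKO 3, the 2 embryos with 20 somites. Pax9 and Pax1 thus had differences of opposite sign between the pieces, 0.17 (SE 0.190) for Pax9 against -0.70 for Pax1 in controls on the log2 scale, a contrast that was not itself tested.

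Nkx3-2, the homeobox repressor downstream of the Pax genes, had the largest difference of the members. Anterior controls 1 to 5 held 2.78, 2.71, 1.79, 2.41 and 2.46 CPM and posterior ones 1.45, 0.473, 0.656, 1.22 and 0.589 CPM. No values overlapped, and the difference was -1.42 on the log2 scale (SE 0.302, adjusted p = 0.00389), or 2.67-fold lower.

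The DKO embryos gave Nkx3-2 values of 2.14, 1.60, 2.19 and 2.32 CPM in the anterior and 0.871, 1.26, 0.214 and 0.512 CPM in the posterior piece. These did not overlap either, although DKO 2, with 24 somites, came close at 1.60 and 1.26 CPM. The log2 fold change was -1.48 (SE 0.402, adjusted p = 0.0276). Leaving out DKO 1, 3 or 4 ended this call (adjusted p = 0.117, 0.0584 and 0.12), at log2 fold changes of -1.55, -1.18 and -1.30. It held in the other 5 of 8 alternatives, among them the embryo as a block, in a fit where 19% of all genes passed.

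Sox9, which starts the cartilage programme, held 51.8, 53.0, 47.2, 41.0 and 41.7 CPM in anterior controls and 41.3, 32.0, 35.0, 32.7 and 35.1 CPM in posterior ones. The ranges met, since the highest posterior value passed the lowest anterior one, but the posterior library was lower in 5 of 5 embryos. The difference was -0.42 (SE 0.0899, adjusted p = 0.00429).

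DKO libraries held Sox9 at 47.1, 47.8, 45.4 and 41.9 CPM in the anterior and 31.1, 47.0, 22.5 and 31.7 CPM in the posterior piece. DKO 2 was the high posterior value and nearly equal to its own anterior piece. The difference, -0.45 (SE 0.178), did not pass (adjusted p = 0.115) without the embryo as a block and did with it (-0.50, SE 0.140, adjusted p = 0.0385). Without DKO 2 it was -0.65 (SE 0.136) and passed as well (adjusted p = 0.0142).

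Of Sox5 and Sox6, the paired cofactors of Sox9, only Sox6 passed, and the contrast between them was not tested. Sox6 held 14.3, 14.8, 17.3, 12.3 and 16.1 CPM in anterior and 22.3, 20.1, 23.9, 20.0 and 26.7 CPM in posterior controls. Anterior DKO libraries held it at 11.8, 12.8, 13.4 and 10.7 CPM and posterior ones at 19.2, 20.4, 20.3 and 16.3 CPM. In both genotypes every posterior value exceeded every anterior one.

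Sox6 rose by 0.59 on the log2 scale in controls (SE 0.108, adjusted p = 0.0013) and by 0.65 in DKO embryos (SE 0.112, adjusted p = 0.00224), about 1.51-fold and 1.57-fold. Within embryos the DKO differences lay between 0.60 and 0.69, the narrowest range of any member in either genotype. Sox5 showed 0.07 (SE 0.111) in controls and -0.12 (SE 0.146) in DKO embryos, with overlapping groups, and passed in neither.

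Twist1 held 113, 101, 133, 113 and 105 CPM in anterior controls and 79.7, 49.5, 96.3, 99.9 and 98.3 CPM in posterior ones. Every posterior value was below every anterior one, but controls 4 and 5 were only just below, and control 2 was far below. The control difference was -0.42 (SE 0.160, adjusted p = 0.0789), and with the embryo as a block -0.45 (SE 0.107, adjusted p = 0.00764), in a fit where 33.6% of all genes passed. Without control 2 it was -0.31 and also passed (adjusted p = 0.0292).

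DKO embryos held Twist1 at 69.9, 97.0, 79.4 and 88.6 CPM in the anterior and 45.8, 72.1, 49.2 and 67.7 CPM in the posterior piece. The drop was seen in 4 of 4 embryos although the groups overlapped. Its value of -0.51 (SE 0.155, adjusted p = 0.0461) sat just inside the threshold. In fits without a term for the embryo, leaving out any 1 of the 4 DKO embryos ended the call (adjusted p = 0.0511 to 0.153). A filter at a mean of 50 counts did so too (adjusted p = 0.0525). The call held in the other 4 of 9 alternatives, among them the embryo as a block, in a fit where 19% of all genes passed.

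Scx, the tendon progenitor factor, ranged from 0.518 to 1.08 CPM in anterior and from 0.607 to 1.46 CPM in posterior controls. Anterior DKO libraries held 0.372 to 0.978 CPM, and posterior ones 0.663 to 0.747 CPM. Its differences of 0.27 (SE 0.295) and -0.06 (SE 0.337) did not pass. Members whose groups did not overlap were 3 lower (Pax1, Nkx3-2 and Twist1) and 1 higher (Sox6) in controls, against 10.7% and 9.44% of all genes. In DKO embryos they were Nkx3-2, lower, and Sox6, higher, against 12.7% and 10.9%.

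**Figure D2:**
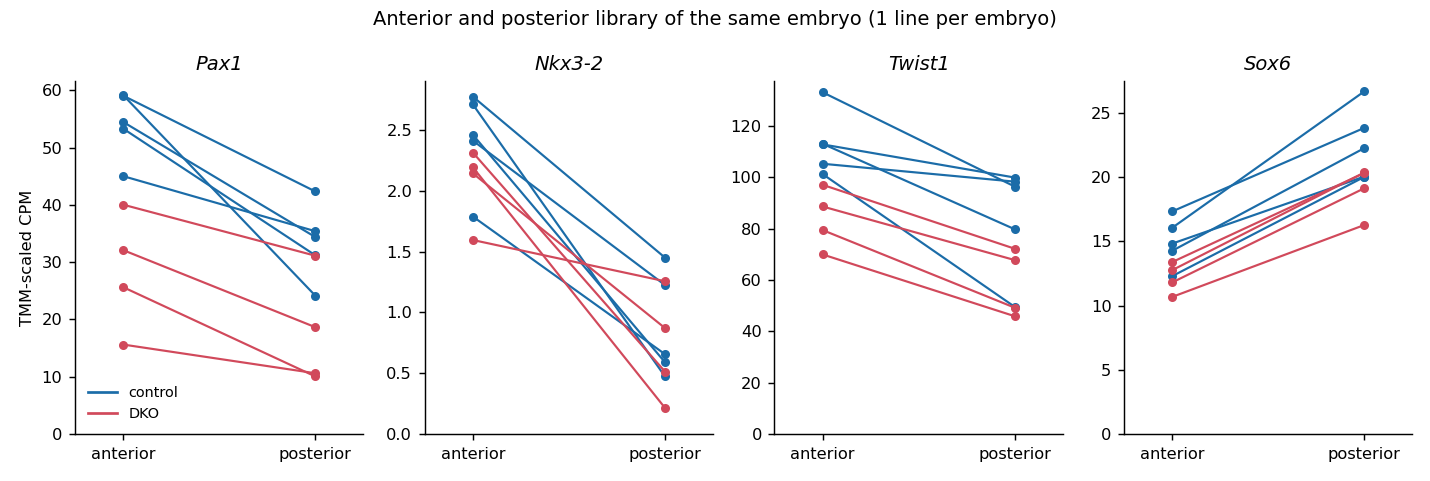
TMM-scaled CPM (vertical axis, from 0) of Pax1, Nkx3-2, Twist1 and Sox6 in the anterior and posterior library of each embryo, 1 line per embryo, 5 controls and 4 DKO. All 9 lines go down for Pax1, Nkx3-2 and Twist1 and all 9 go up for Sox6.

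**Figure D3:**
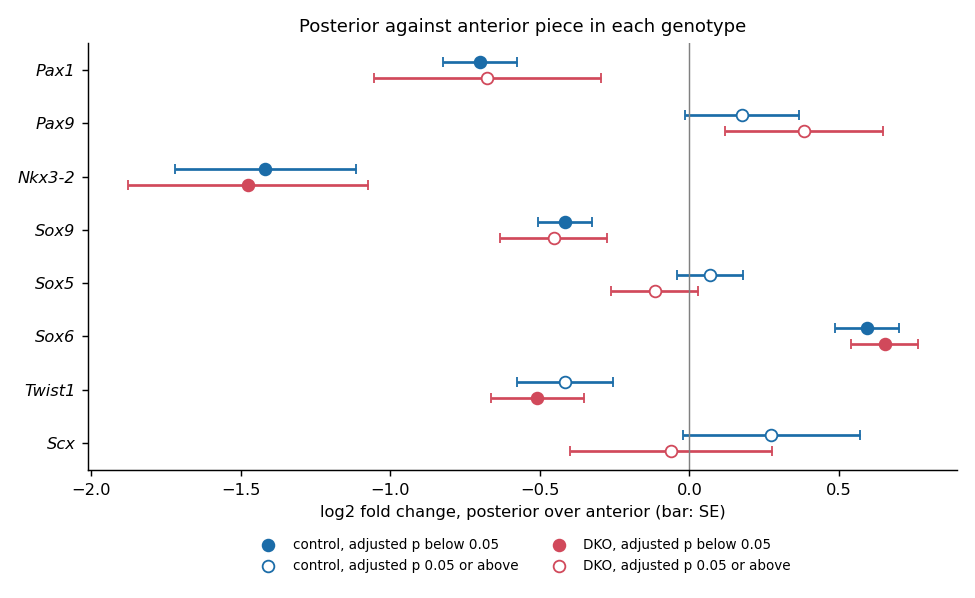
Log2 fold change of posterior over anterior (horizontal axis) for each member, with bars of 1 SE, in controls and DKO embryos; filled points have an adjusted p below 0.05 in the fit without the embryo as a block. Nkx3-2 lies farthest below 0 at -1.42 and -1.48, and Sox6 is the member above 0 that passed, at 0.59 and 0.65.

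The other genes of the pathway also differed between the pieces in both directions. Among 21 genes of sclerotome induction (Hedgehog signalling, bone morphogenetic protein antagonists and early somite factors), 6 were higher and 7 lower in the posterior piece of controls. Foxc2, a forkhead factor of the somite, rose by 1.15 on the log2 scale (SE 0.123), from 34.9 ± 5.51 to 78.0 ± 13.4 CPM (SD, n = 5). The Hedgehog ligand gene Ihh rose by 2.35 (SE 0.627), from 0.332 ± 0.410 to 1.92 ± 1.17 CPM. Meox2, a homeobox gene of the somite, fell by 0.90 (SE 0.130) and Cdon, a Hedgehog co-receptor, by 0.81 (SE 0.0953). The median over the list was -0.03, against -0.01 over all genes.

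Of 15 genes that mark parts of the sclerotome, 6 were higher and 4 lower in posterior controls. Uncx, which marks the caudal part of each sclerotome, rose from 12.9 ± 2.10 to 26.0 ± 9.99 CPM (SD, n = 5), while Tbx18, which marks the rostral part, fell by 0.52 on the log2 scale (SE 0.115). Foxf1, a Hedgehog-responsive forkhead gene that lateral mesoderm also uses, rose by 1.28 (SE 0.237). Zic1, which dorsal neural tube also expresses, fell by 2.74 (SE 0.280), from 147 ± 23.6 to 22.1 ± 8.55 CPM.

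Among 15 tested genes of cartilage, 5 were higher and 4 lower in posterior controls. Col9a1, a Sox9-dependent collagen gene, fell from 41.6 ± 2.71 to 19.1 ± 4.52 CPM (SD, n = 5) and Fgfr3, a receptor of growing cartilage that the neural tube also expresses, from 79.5 ± 10.4 to 24.3 ± 5.62 CPM. Ncam1 rose from 57.3 ± 4.72 to 115 ± 6.51 CPM and Sulf1 from 43.5 ± 4.04 to 123 ± 6.16 CPM, and many tissues use both. Of 17 tested genes of the tendon list, 5 rose and 2 fell. Fgf8, a growth factor of the tail bud as well as of the myotome, rose by 2.95 on the log2 scale (SE 0.211) and its target Etv4 by 2.27 (SE 0.238). The fibrillar collagen genes Col3a1 and Col1a2 fell by 1.41 (SE 0.200) and 0.85 (SE 0.113).

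Among 16 basic helix-loop-helix partners and relatives of Twist1, 6 were higher and 2 lower. The E-protein gene Tcf12 fell by 0.34 (SE 0.0607) and the inhibitor Id3 by 0.52 (SE 0.0990). Msgn1 and Mesp1, genes of the presomitic mesoderm, stood at 17.9 ± 6.88 and 1.66 ± 0.619 CPM in posterior controls and near 0 in anterior ones. Of 13 tested relatives of the Sox and Pax members, 3 rose and 7 fell. Pax2 and Pax8, of the intermediate mesoderm, rose by 2.38 (SE 0.198) and 2.23 (SE 0.407), and Nkx2-2 and Pax7 fell by 2.14 (SE 0.213) and 1.98 (SE 0.251).

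In DKO embryos the counts in the same lists, as higher and lower, were 3 and 6 of 21 for induction, 3 and 3 of 15 for the sclerotome parts, 5 and 2 of 17 for cartilage, 4 and 1 of 17 for tendon, 7 and 1 of 14 for helix-loop-helix genes and 3 and 6 of 13 for Sox and Pax relatives. Foxc2 rose there by 0.62 (SE 0.182) and Cdon fell by 0.94 (SE 0.111). Ihh rose by 2.81 (SE 0.562), and Boc, a further Hedgehog co-receptor, fell by 0.79 (SE 0.111).

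Markers of other tissues also differed between the pieces. The summed level of 12 neural tube markers ranged from 690 to 819 CPM in anterior and from 292 to 416 CPM in posterior controls, with 12 of 12 lower. The sum of 10 presomitic mesoderm markers ranged from 137 to 167 CPM and from 348 to 470 CPM, with 9 of 10 higher. Of 9 neural crest markers 6 were lower, with sums of 269 to 305 and 160 to 213 CPM. Of 11 tested markers of dermomyotome and myotome, 8 were lower and 1 higher, with sums of 182 to 237 and 110 to 148 CPM. The sum of 6 notochord and floor plate markers was 46.7 to 54.0 CPM in anterior and 123 to 181 CPM in posterior controls, with 2 higher and 1 lower, and that of 12 gut and pharyngeal markers 87.2 to 106 and 129 to 176 CPM, with 4 higher and 2 lower of 8 tested. The part of these tissues in the members' differences along the axis was not tested.

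The second comparison set DKO against control embryos within each piece, which asks whether these genes depend on Meis1 and Meis2. No member passed the threshold in either piece. Each of the 8 had a fitted value below 0 in both, though those of Sox9 in both pieces and of Scx in the anterior turned with 1 library left out, and Pax1 had the lowest, at about 1.93-fold below control in the anterior and 1.89-fold in the posterior piece. Across all genes the test also passed few, 0.0394% of 15238 genes in the anterior and 0.0126% of 15936 in the posterior piece. At an unadjusted p below 0.05, 5 of 8 members were lower in the anterior piece (Pax1, Pax9, Sox5, Sox6 and Twist1), where 6.61% of all genes were lower and 6.41% higher by that rule.

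In the posterior piece 4 of 8 were lower at an unadjusted p below 0.05 (Pax1, Sox5, Sox6 and Twist1), against 5.74% of all genes, with 5.27% higher. The median over the members was -0.27 in the anterior and -0.35 in the posterior piece on the log2 scale, against 0.00 and 0.01 over all genes. DESeq2, which estimates the spread in another way, passed 2 members in the anterior piece, Pax1 (adjusted p = 0.0238) and Twist1 (adjusted p = 0.00272), in a fit where 1.77% of all genes passed, and none in the posterior piece. Without the filter on low counts edgeR's test also passed Pax1 (adjusted p = 0.0345) and Twist1 (adjusted p = 0.0491) in the anterior piece, where 0.274% of all genes passed.

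For Pax1 the anterior DKO values of 15.6, 40.0, 25.6 and 32.1 CPM all lay below the lowest control value of 45.0 CPM. The means were 54.2 ± 5.78 CPM (SD, n = 5) and 28.4 ± 10.3 CPM (SD, n = 4). The fitted difference was -0.95 on the log2 scale (SE 0.213), with an adjusted p of 0.12 from edgeR's quasi-likelihood test. The DKO embryos varied more than the controls, with a coefficient of variation of 36.5% against 10.7%. DKO 2, with 24 somites, was nearest to the controls, and without it Pax1 was at -1.16 and passed (adjusted p = 0.0461).

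In the posterior piece Pax1 held 10.6, 31.1, 10.0 and 18.6 CPM in DKO 1 to 4 against 24.1 to 42.4 CPM in controls. DKO 2 stood among the controls here and the other 3 below all of them. The difference was -0.92 (SE 0.305, adjusted p = 0.392). Between its alternatives Pax1 ranged from -1.35 to -0.73 in the posterior and from -1.16 to -0.74 in the anterior piece.

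Twist1 in anterior DKO libraries held 69.9, 97.0, 79.4 and 88.6 CPM, all below the lowest control value of 101 CPM. Means were 113 ± 12.3 (SD, n = 5) and 83.7 ± 11.7 CPM (SD, n = 4), a difference of -0.43 (SE 0.0985, adjusted p = 0.123). It passed with the somite number as a covariate (adjusted p = 0.0448), where 0.551% of all genes did, and with the sex label (adjusted p = 0.0472), where 0.466% did. That label goes against Xist and Y-linked genes for control embryo 1. The posterior libraries held 45.8, 72.1, 49.2 and 67.7 CPM against 49.5 to 99.9 CPM in controls, and overlapped only through control 2, the control with 20 somites. There the difference was -0.53 (SE 0.204, adjusted p = 0.435).

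Sox5 held 8.26, 7.98, 7.97 and 7.71 CPM in anterior DKO libraries, just below the lowest of the controls, which held 9.29, 9.14, 8.79, 10.5 and 8.62 CPM. The groups did not overlap, but the gap between them was small and the difference was -0.22 (SE 0.0884, adjusted p = 0.337). In the posterior piece DKO libraries held 8.03, 8.41, 7.58 and 5.33 CPM and controls 9.81, 7.60, 10.1, 10.0 and 11.1 CPM. These overlapped through control 2 and gave -0.41 (SE 0.152, adjusted p = 0.427). Pax1, Sox5 and Twist1 were the 3 members whose anterior groups did not overlap, against 2.61% of all genes with DKO lower, and no member's posterior groups were apart, against 4.29% of all genes in either direction.

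Sox6 lay at -0.30 (SE 0.109, adjusted p = 0.285) in the anterior and -0.24 (SE 0.110, adjusted p = 0.451) in the posterior piece, with 2 of 4 DKO libraries below every control in each. Pax9 held 5.72, 5.71, 6.12 and 5.67 CPM in anterior DKO libraries, a narrow band inside the control range of 4.99 to 9.74 CPM, and lay at -0.45 (SE 0.174, adjusted p = 0.309). Its posterior DKO values were 7.65, 11.9, 4.11 and 6.35 CPM, wider than the controls on both sides, and gave -0.24 (SE 0.262, adjusted p = 0.71). That value was -0.56 without DKO 2, -0.047 without DKO 3, -0.14 without control 3 and -0.085 without both embryos with 20 somites.

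Nkx3-2 was at -0.24 (SE 0.186) in the anterior and -0.30 (SE 0.481) in the posterior piece. Leaving out 1 library moved it to between -0.72 (without DKO 2) and -0.021 (without DKO 3) in the posterior piece, with -0.034 without control 1, and to as little as -0.14 (without DKO 2) in the anterior. Its ranges overlapped in both, at 1.60 to 2.32 against 1.79 to 2.78 CPM and at 0.214 to 1.26 against 0.473 to 1.45 CPM. Scx gave -0.12 (SE 0.334) and -0.46 (SE 0.302). Its anterior value turned to 0.025 without control 1 and 0.13 without DKO 1 and reached -0.28 without DKO 2, and its posterior value was -0.26 without control 3. Sox9 was the member nearest to 0, at 45.6 ± 2.63 CPM (SD, n = 4) in anterior DKO against 47.0 ± 5.55 CPM (SD, n = 5) in anterior control libraries. Its differences of -0.05 (SE 0.0828) and -0.09 (SE 0.171) were within the spread of the embryos, and each turned to the other sign when the 2 embryos with 20 somites were left out, at 0.0047 and 0.022. In the posterior piece 3 of 4 DKO values of Sox9 lay below every control and that of DKO 2 above them all. The posterior difference was -0.31 without DKO 2 and 0.055 without DKO 3.

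**Figure D4:**
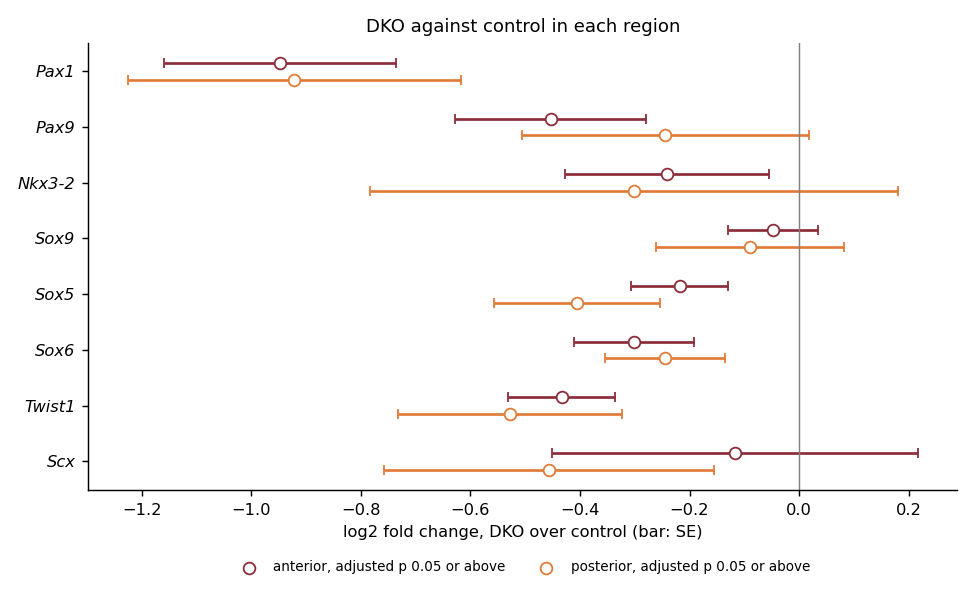
Log2 fold change of DKO over control (horizontal axis) for each member in the anterior and the posterior piece, with bars of 1 SE; open points have an adjusted p of 0.05 or above, which was all of them. Pax1 lies farthest to the left at -0.95 and -0.92 and Sox9 nearest to 0 at -0.05 and -0.09.

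The 2 genotype differences of each member were then compared directly, as the interaction of region and genotype over all 18 libraries. No member passed, nor did any of 16428 genes (0%), and 0 of 8 members had an unadjusted p below 0.05, against 3.45% of all genes. For Pax1 the difference of differences was 0.03 (SE 0.401) and with the embryo as a block -0.02 (SE 0.205). Twist1 gave -0.09 (SE 0.246) and, with the block, -0.07 (SE 0.157). The widest was Scx at -0.35 (SE 0.446), and the SE of the others ran from 0.156 for Sox6 to 0.507 for Nkx3-2. Between the alternatives Scx ranged from -0.64 to -0.16 and Nkx3-2 from -0.58 to 0.24. DESeq2 passed 7 genes in this comparison and no member.

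The members' values were also set against the somite number of the embryos. By Xist and Y-linked genes the embryos with 23 or 24 somites were all male, and those with 20 to 22 all female. Somite number and sex therefore cannot be told apart here. In a fit with genotype and somite number, added after the values had been seen, Pax1 was higher by 0.27 on the log2 scale per somite in the posterior piece (SE 0.0669), Pax9 by 0.21 (SE 0.0645), Twist1 by 0.15 (SE 0.0553) and Sox9 by 0.14 (SE 0.0423). None passed (adjusted p = 0.277, 0.446, 0.616 and 0.441), where 0.0126% of all genes did. The 4 had unadjusted p-values below 0.05, against 6.42% of all genes. In the anterior piece, where 0.0328% of all genes and no member passed, Pax1 was at 0.05 (SE 0.0704) and Pax9 at -0.04 (SE 0.0586) per somite, and Twist1 at 0.07 (SE 0.0258) was the member with an unadjusted p below 0.05, against 12.9% of all genes.

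Among posterior DKO libraries, DKO 2 with 24 somites was the highest for 7 of 8 members and DKO 3 with 20 somites was the lowest for 4. Among posterior controls, control 2 with 20 somites was the lowest for 5 of 8. After removal of the group means, Pearson's r over the 9 posterior libraries ran from -0.55 for Nkx3-2 with Scx to 0.90 for Pax9 with Sox9 over all pairs of members. These values describe 9 embryos that differ in somite number, and with it in sex, and share 1 library per embryo.

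**Figure D5:**
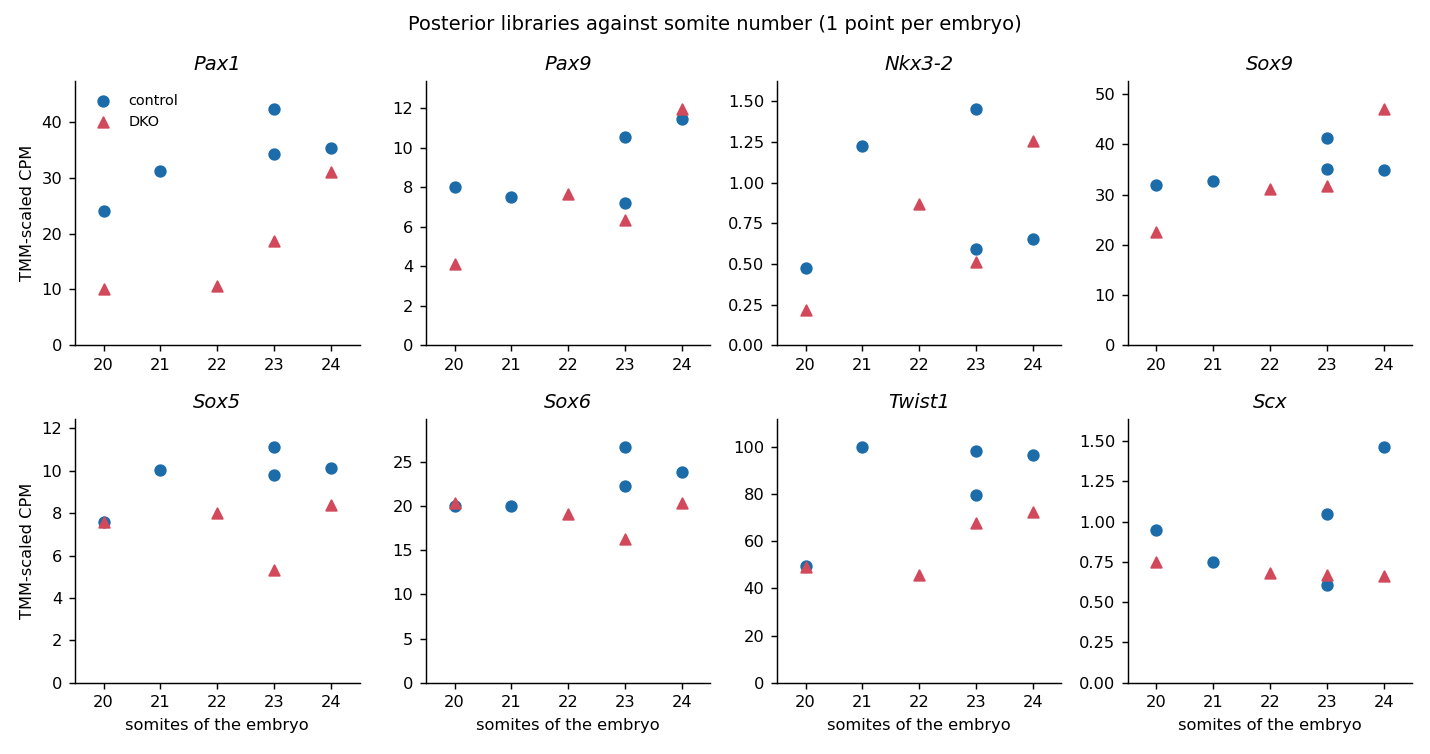
TMM-scaled CPM of each member in the posterior library (vertical axis, from 0) against the somite number of the embryo (horizontal axis), 1 point per embryo, circles for 5 controls and triangles for 4 DKO. The DKO embryo with 24 somites is the highest triangle for every member but Scx. The 2 embryos with 20 somites are the lowest of their genotype for Pax1, Nkx3-2 and Sox9. Somite number and sex cannot be told apart in these embryos.

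No gene of the other sclerotome lists passed in the DKO comparisons. Of 20 tested genes of induction, 3 were higher and 4 lower in the anterior piece at an unadjusted p below 0.05, and of 21 in the posterior piece 1 and 6. Over all genes those shares were 6.41% and 6.61% in the anterior and 5.27% and 5.74% in the posterior piece. Meox1, a homeobox gene of the somite, was at 184 ± 15.6 CPM in anterior controls and 138 ± 19.0 CPM in anterior DKO libraries, and at 228 ± 18.3 and 149 ± 40.8 CPM in the posterior piece. Its log2 differences were -0.42 (SE 0.0950) and -0.61 (SE 0.159). Foxc2 was at -0.57 (SE 0.142) in the posterior piece.

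The counts for the other lists, by the same unadjusted rule and to be read against the same shares, went both ways. Of 15 genes of the sclerotome's parts, 3 were higher and 2 lower in the anterior and 1 and 4 in the posterior piece. Tbx18 was at -0.44 (SE 0.157) in the anterior piece, and Foxd2 at -0.95 (SE 0.228) and Msx1 at 0.38 (SE 0.131) in the posterior piece. Among cartilage genes 4 of 14 were higher and 3 lower in the anterior piece, and 2 and 1 of 17 in the posterior piece. The anterior values were -0.43 (SE 0.0701) for Col9a1 and 0.36 (SE 0.0603) for Ncam1, both at an adjusted p of 0.0522. Pdgfra, the receptor gene of sclerotome mesenchyme, was at -0.43 (SE 0.102) in the posterior piece and Col11a2, a cartilage collagen gene, at 0.31 (SE 0.119).

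In the tendon list 2 of 16 genes were higher and 5 lower in the anterior piece at an unadjusted p below 0.05. Of 17 in the posterior piece 0 were higher and 2 lower, and the median was 0.07. In the anterior piece Col1a1 was at -1.51 (SE 0.303), with 83.6 ± 38.7 CPM in anterior controls (SD, n = 5) and 29.4 ± 4.72 CPM in anterior DKO libraries (SD, n = 4), and Col1a2 at -0.46 (SE 0.0960). Tgfb3 and Six2 were at -0.43 (SE 0.160) and -0.59 (SE 0.221) in the posterior piece. Among the helix-loop-helix genes 0 of 12 were higher and 5 lower in the anterior piece, and 0 and 3 of 16 in the posterior piece. Tcf12 and Tcf4, E-protein partners of Twist1 and Scx, were at -0.26 (SE 0.0434) and -0.22 (SE 0.0655) in the anterior piece. Id4 at -0.52 (SE 0.191) and Mesp1 at -1.01 (SE 0.418) had the smallest p of that list in the posterior piece. Among 13 Sox and Pax relatives 4 were higher and 2 lower in the anterior piece, and 0 and 2 in the posterior piece. Pax2 was at -1.31 (SE 0.300) in the anterior and -1.14 (SE 0.196) in the posterior piece. Nkx6-1 was at 0.38 (SE 0.0821) in the anterior piece and Pax8 at -1.09 (SE 0.272) in the posterior one.

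Summed markers of other tissues are given beside these values, and no gene of their lists passed in either genotype comparison. In the anterior piece the sum of 12 neural tube markers was 690 to 819 CPM in controls and 836 to 967 CPM in DKO libraries, with 8 of 12 higher at an unadjusted p below 0.05. The sum of 9 neural crest markers was 269 to 305 and 307 to 363 CPM, and that of 6 notochord and floor plate markers, the source of the Hedgehog signal, 46.7 to 54.0 and 58.7 to 68.4 CPM. None of the 3 pairs of ranges overlapped. The sum of 9 limb and lateral mesoderm markers was 92.9 to 98.9 CPM in 4 of the controls, 210.5 CPM in control 3 and 80.3 to 92.4 CPM in DKO libraries, with 2 of 8 tested markers lower at an unadjusted p below 0.05. These ranges lay next to each other without overlap. That of 10 presomitic markers was 137 to 167 and 159 to 202 CPM, and that of 8 erythroid markers 1044 to 5118 and 1325 to 2232 CPM. The sum of 12 dermomyotome and myotome markers was 182 to 237 and 194 to 261 CPM. The last 3 pairs overlapped.

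In the posterior piece neural tube sums of 292 to 416 and 354 to 483 CPM overlapped through DKO 3, while the other 3 DKO sums lay above every control. All 12 neural tube markers had values above 0, with a median of 0.32 on the log2 scale against 0.30 in the anterior piece, and 3 of 12 were higher at an unadjusted p below 0.05. By that rule 2 of 8 tested dermomyotome and myotome markers and 2 of 8 limb and lateral mesoderm markers were lower, with sums of 110 to 148 and 106 to 148 CPM and of 115 to 188 and 90.7 to 181 CPM. Endothelial sums of 176 to 291 and 175 to 250 CPM overlapped as well. So did neural crest sums of 160 to 213 and 159 to 233 CPM, with 0 of 8 tested markers higher and 1 lower by that rule. The sum of 8 erythroid markers was 1485 to 2471 CPM in posterior controls and 1797 to 3770 CPM in posterior DKO libraries, with 5 of 8 higher at an unadjusted p below 0.05. The 12 gut and pharyngeal markers, a tissue that also uses Pax1 and Pax9, summed to at most 179 CPM in any library, and the genotypes overlapped in both pieces. Of 8 tested, 1 was higher and 0 lower in the anterior piece at an unadjusted p below 0.05, and 3 and 1 in the posterior piece. These counts are to be read against the shares of all genes given above. The part of these tissues in the members' differences was not tested.

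Reads from overlapping genes could enter some counts, since the use of the read strand is not given in the sources used here. In GENCODE M21 (GRCm38) Pax1 lies on chromosome 2 (147361925 to 147393295, plus strand) and shares 183 bases of exon with AI646519 on the other strand, which held 0.462 to 1.01 CPM in the means of the 4 groups. Pax9 lies on chromosome 12 (56691767 to 56712822, plus strand) and shares 189 bases of exon with Slc25a21, at 3.62 ± 0.793 CPM in anterior and 1.97 ± 0.335 CPM in posterior controls. Slc25a21 was lower in the posterior piece of controls (-0.88, SE 0.192, adjusted p = 0.00461) while Pax9 was not.

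Scx lies on chromosome 15 (76457452 to 76459458, plus strand) inside Bop1, a ribosome biogenesis gene on the other strand, with 0 bases of exon in common. Bop1 held means of 125 to 144 CPM in the 4 groups, against 0.689 to 0.962 CPM for Scx, and any part of Bop1 reads in the Scx counts was not tested. Sox5 (chromosome 6, 143828425 to 144781977, minus strand) shares 1330 bases with Sox5os1, which held at most 3 counts in any library. Nkx3-2 (chromosome 5, 41761483 to 41764501, minus strand), Sox9 (chromosome 11, 112782224 to 112787760, plus strand) and Twist1 (chromosome 12, 33957671 to 33959829, plus strand) overlap no other gene of that annotation. Sox6 (chromosome 7, 115470872 to 116038796, minus strand) overlaps 2 antisense genes outside its exons.

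Genes most like each member were sought among 11817 protein-coding genes by Pearson's r of log2 CPM over all 18 libraries, which share their embryos and mix region and genotype. Pax1 was most like Meox2 (r = 0.96), Ssc5d (0.93) and Meis2 (0.91). After removal of the mean of each region, which leaves the genotype difference in, it was most like Meox2 (0.95), Dmrt2 (0.95) and Wt1 (0.93). Twist1 was most like Kctd12 (0.93), Meis1 (0.92) and Col23a1 (0.91), and with region means removed like Mest (0.94), Meis1 (0.93) and Kctd12 (0.92). Meis1 and Meis2 are the genes deleted in DKO embryos, so the correlations with them also hold the genotype difference.

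For the other members the leading genes over all 18 libraries were Slc1a3 (r = 0.94) for Nkx3-2, Foxp4 (0.94) for Sox9, Jmy (0.94) for Sox6, Pdzd8 (0.91) for Sox5, Tgfb3 (0.81) for Pax9 and Rprd1a (0.69) for Scx. With region means removed, Sox9 was among the 3 genes most like Pax9 (r = 0.83), and Fzd8 led for Nkx3-2 (0.81) and was second for Sox9 (0.85).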

How the data were processed

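The libraries were poly(A) RNA, prepared with a NEBNext kit and read from a single end, per the labels' protocols. The authors deposited expected counts per Ensembl gene, unscaled, in 1 table. CASAVA, cutadapt and RSEM with the build GRCm38 are named, without versions, in the submitters' processing notes; the aligner and the use of the read strand are not given in the sources used here. Of 53465 identifiers, 53360 were found in GENCODE M21, which gave symbols, positions and exon lengths.

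The expected counts were rounded. Each comparison was fitted with edgeR 4.0.16 (R 4.3.3) by its quasi-likelihood test after filterByExpr (minimum count 10, minimum total 15) and TMM scaling, with Benjamini-Hochberg adjustment over all genes tested and a threshold of 0.05. DKO and control embryos were compared in a fit per piece, pieces in a fit per genotype, and the interaction over all 18 libraries. Levels are TMM-scaled CPM, put on the log2 scale with a prior count of 2. DESeq2 1.42.0, other scaling and filters, covariates and leaving out each embryo were alternatives. The sex covariate followed the labels, also for control embryo 1, which looked male. Fits were tested on simulated data, with 100 genes changed at each size. Of genes changed by 1 on the log2 scale, 89% were recovered in the anterior and 81% in the posterior genotype comparison. Of those changed by 0.5, 53% and 29% were recovered. In the measured data 6 and 2 genes passed in these comparisons. The adjusted threshold is easier to pass where many genes change. The simulated shares therefore do not give the chance that a member's change would pass here.

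Libraries were paired into embryos by genotype, sex label and somite number, which the 2 pieces of an embryo share. Deviations from the group means correlated at r = 0.26 to 0.57 in the 9 pairs from the same embryo and at -0.28 to 0.09 in the 32 pairs from different embryos of a genotype, over 16428 genes. Each library of a group is a separate embryo, and no 2 libraries of the same group agreed within sampling noise.

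The members and the gene lists were chosen with earlier results of these data known, and so were the tests. Named genes of other lists were, per list and comparison, up to 2 higher and 2 lower with the largest change among those that passed, or else the 2 with the smallest p; a few of these are not reported here. Near genes were the 3 with the highest correlation among genes with a mean of at least 50 counts. RefSeq promoters were searched for each motif on both strands.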

Additional observations from a re-analysis of the deposited data

Results flagged for a closer look

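In 32 groups of 4 or 5 libraries (8 members in 4 groups), 1 value stood apart from the rest of its group by Dixon's test. Pax9 in the anterior library of DKO 3, the embryo with 20 somites, was at 6.12 CPM, above 5.67 to 5.72 CPM in the other 3 anterior DKO libraries. It lay inside the control range of 4.99 to 9.74 CPM. Chance flags about 1 in 20 groups.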

How the results depend on the processing

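Of 526 recomputed fold changes of the members, 488 kept their direction and their side of the threshold, 8 lost a call, 12 gained one and 18 changed sign. Members past the threshold in the anterior genotype comparison were 0, but 2 with DESeq2, 2 with no filter on low counts, 1 with somite number and 1 with sex label as a covariate, and 0 to 1 when leaving out an embryo. All genes past it there were 6, but 287 with DESeq2, 83 with no filter, 19 with all 18 libraries in one fit, 84 with somite number, 71 with sex label, 1 without the 2 embryos with 20 somites (chosen after seeing the data) and 1 to 57 when leaving out an embryo. In the posterior genotype comparison they were 2, but 156 with DESeq2, 14 with no filter, 1 with a mean of at least 50 counts, 51 in one fit, 7 with somite number and 2 to 24 when leaving out an embryo. In the interaction they were 0, but 7 with DESeq2 and 0 to 1 when leaving out an embryo. Among the counts with an embryo left out, the highest in each of these comparisons came without DKO 2.

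Between the pieces of DKO embryos 3 members passed, but 5 with the embryo as a replicate block, 1 with a mean of at least 50 counts, which drops Nkx3-2 and Scx, and 1 to 3 when leaving out an embryo. All genes there were 2913, against 3004 with the block and 1728 to 2550 when leaving out an embryo. Beyond Pax1 and Sox9 in DKO embryos and Twist1 in controls, the block changed no call, and the Pax1 interaction turned to -0.022 with it. Sox9 turned to 0.0047 in the anterior and 0.022 in the posterior genotype comparison without the 2 embryos with 20 somites. Leaving out an embryo turned the sign of values near 0. The ranges over embryos left out were -0.093 to 0.0018 for Sox9 and -0.28 to 0.13 for Scx in the anterior genotype comparison, and -0.31 to 0.055 for Sox9 in the posterior genotype comparison, and -0.20 to 0.17 for Pax1, -0.12 to 0.42 for Pax9, -0.58 to 0.24 for Nkx3-2 and -0.24 to 0.094 for Sox9 in the interaction, and -0.30 to 0.13 for Scx in the comparison of pieces in DKO embryos. The cause of these changes was not tested. Nkx3-2 and Scx rest on the fewest counts.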
